A study of Mus musculus with 9 samples.

Results

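This report covers 9 genes that mark monocytes and interstitial macrophages: C1qa, C1qb, C1qc, Fcrls, Cx3cr1, Csf1r, Ccr2, Ms4a7 and Plac8. They were chosen by symbol from a table of 16165 mouse genes. All 9 were in the table, all 9 were above 1 RPKM in every library, and all 9 were among the 13849 genes tested. Total lung RNA came from 9 mice, with 3 in each group and a library for each mouse. Control mice received vehicle. Mice labelled TGFalpha, a transgenic model in which this EGF receptor ligand is made in excess under Dox, were on Dox for 6 weeks together with vehicle. A further group labelled TGFalpha, on Dox for the same 6 weeks, received the antifibrotic drug pirfenidone. Treatment with vehicle or drug covered the last 3 of these weeks. Labels of the controls mention no Dox, while the series description can also be read as Dox for both genotypes. Where controls had none, transgene and Dox cannot be told apart as the source of a difference from control. No control mice received pirfenidone, and the labels give neither the promoter that drives the transgene nor strain, age or sex.

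C1q is the recognition unit of the classical complement pathway, built from A, B and C chains, and macrophages are a main source of it. Monocytes leave the bone marrow through CCR2, circulate in a classical and a CX3CR1-rich nonclassical form, and can mature in tissue into macrophages that depend on signals through CSF1R. In the lung, interstitial macrophages lie in the connective tissue around airways and vessels, and alveolar macrophages lie in the air spaces. Fcrls encodes an Fc receptor-like protein best known as a mouse microglia marker, Ms4a7 encodes a membrane protein of macrophages, and Plac8 encodes a small cysteine-rich protein found in myeloid and lymphoid cells and in some epithelia.

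Library totals ran from 11428709 to 18874158 reads, and the members had between 78 reads (Ms4a7, control library 1) and 4506 reads (C1qa, pirfenidone library 2). The pirfenidone libraries had the 3 lowest totals, 11428709, 13219916 and 14125367 reads in order of library number. What part depth had in the values was not tested. Surfactant genes and other lung epithelial markers were abundant in all 9 libraries, with a summed level of 32210 to 65220 RPKM. RPKM divides reads by both library total and gene length, so levels can be compared between genes. The mouse Tgfa gene had 6.84 ± 0.79 RPKM in control lungs (SD, n = 3) and 6.85 ± 0.83 in TGFalpha lungs on vehicle. Whether transgene reads count toward the mouse gene is not given in the sources used here, so this value is no check of the labels. Total lung RNA cannot tell more cells of a type from more RNA per cell.

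In every one of the 9 genes, the 2 highest of the 9 libraries were pirfenidone libraries 1 and 2. This order held for 12.3% of all tested genes. It also held for 8 of 15 further interstitial macrophage genes and 4 of 15 pan-macrophage genes. Among monocyte lists it held for 2 of 8 classical and 1 of 10 nonclassical genes. The 9 genes were chosen with earlier results of these data known. Pirfenidone library 3 was the lowest of its group for all 9 genes and lay within the range of the TGFalpha vehicle libraries for 7 of them; it was the lowest of its group for 35% of all tested genes. Control library 3 was the highest control for 8 of the 9 genes, all but Plac8, and for 39.3% of all tested genes. Between groups, 6 genes were higher with pirfenidone than in control lungs by limma (C1qa, C1qb, C1qc, Fcrls, Cx3cr1 and Ms4a7). Plac8 was the sole member called in either of the other comparisons, lower in TGFalpha lungs on vehicle than in control lungs and higher with pirfenidone than with vehicle.

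**Figure D1:**
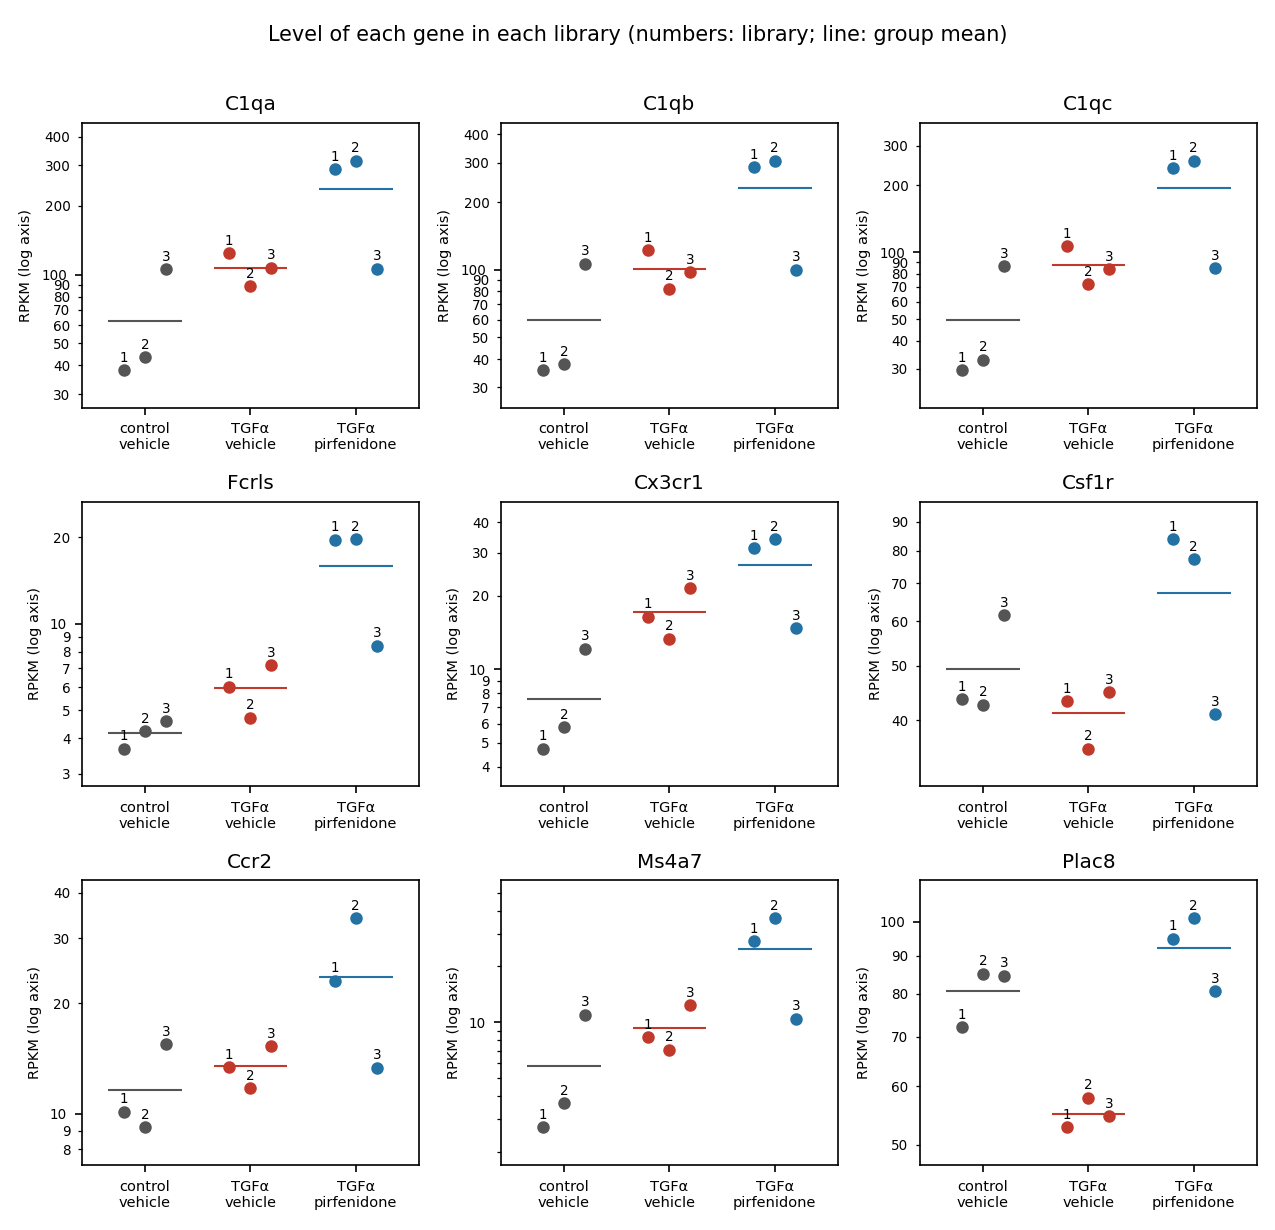
RPKM of the 9 genes on a log axis, 1 point per library with its library number, by group, with a line at the group mean. Pirfenidone libraries 1 and 2 are the highest points in every panel, and pirfenidone library 3 sits near the TGFα vehicle libraries in all panels but Fcrls and Plac8.

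The C1q chains were the most abundant members in the pirfenidone group. C1qa was at 38.2, 43.4 and 105 RPKM in the control libraries, 124, 89.2 and 107 in TGFalpha lungs on vehicle, and 289, 315 and 106 with pirfenidone. Control library 3 lay within the vehicle range, and pirfenidone library 3 did too. The group means were 62.3 ± 37.3, 107 ± 17.2 and 237 ± 114 RPKM (SD, n = 3 each). C1qa was 3.80-fold higher with pirfenidone than in control, with a log2 fold change of 1.91 (SE 0.47, limma adjusted p = 0.0262), and those groups did not overlap. The log2 differences of TGFalpha vehicle from control, 0.90 (adjusted p = 0.193), and of pirfenidone from vehicle, 1.00 (adjusted p = 0.266), did not pass the threshold of 0.05.

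C1qb was at 35.8, 37.9 and 106 RPKM in control, 122, 82.2 and 97.7 with vehicle, and 286, 306 and 100.1 with pirfenidone. C1qc was at 29.6, 32.9 and 86.4 RPKM in control, 106, 71.8 and 84.2 with vehicle, and 239, 258 and 84.6 with pirfenidone. In both genes control library 3 stood above pirfenidone library 3, so those groups overlapped. Against control, pirfenidone gave a log2 fold change of 1.95 for C1qb (adjusted p = 0.0308) and 1.96 for C1qc (adjusted p = 0.0284). The chains kept nearly one proportion across the libraries: the ratio of C1qa to C1qb ran from 0.991 to 1.15, and that of C1qc to C1qb from 0.813 to 0.873. C1qb and C1qc had the most alike patterns among the members, with a root mean square difference of 0.038 on the log2 scale over 9 libraries.

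The C1q genes lie side by side on chromosome 4, in 18719 bases (GRCm38, 136880126 to 136898844). The bases just upstream of C1qb and C1qc are shown because these neighbouring genes varied together. The sequences are RefSeq's on GRCm38.p6, chr4:136886201-136886450 for C1qb and chr4:136892937-136893164 for C1qc, both on the minus strand and written 5′ to 3′ up to the first base of the gene's annotated span. For C1qc that span begins 22 bases before the start the promoter table uses, so 228 of its 250 bases are printed. Capitals mark matches to GAGGAA (in reverse TTCCTC), letters that the macrophage factor PU.1 binds, and to TGCTGA, a half-site of MAF factors.
C1qb: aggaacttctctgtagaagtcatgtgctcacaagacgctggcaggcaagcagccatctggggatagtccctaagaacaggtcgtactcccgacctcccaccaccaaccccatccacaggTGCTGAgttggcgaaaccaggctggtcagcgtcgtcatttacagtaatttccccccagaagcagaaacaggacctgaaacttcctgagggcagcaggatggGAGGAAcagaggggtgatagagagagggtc
C1qc: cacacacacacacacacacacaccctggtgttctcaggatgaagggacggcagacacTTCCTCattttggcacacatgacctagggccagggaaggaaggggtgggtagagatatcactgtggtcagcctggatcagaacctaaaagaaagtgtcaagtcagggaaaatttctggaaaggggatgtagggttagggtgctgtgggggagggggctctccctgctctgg

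Promoters of 7 members (not C1qa or Csf1r) were searched on both strands, in the 250 bases before each start the promoter table uses. The printed bases of C1qc and the 22 beyond them were included. Ms4a7 and Plac8 had alternative promoters, and a gene was counted if any of its promoters matched. The percentages are shares of promoters, not of genes. GAGGAA was found for 4 of them (C1qb, C1qc, Fcrls and Plac8), and 23.3% of all RefSeq promoters of that length hold it. For Plac8 it was not in all of the promoters searched. TGCTGA was found for 2 (C1qb and Fcrls), against 16.1% of all promoters. The longer GAGGAAGT, which contains GAGGAA, was found for C1qc, against 2.44%. No match was found to the ETS-IRF composite site (2.30% of all promoters), the C/EBP palindrome TTGCGCAA (0.164%) or the NR4A site AAAGGTCA (1.34%). These matches describe the sequence and do not show binding.

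Among the genes of the C1 complex and its neighbours in the cascade, 12 were measured. In TGFalpha lungs on vehicle 1 of 12 was called higher than in control and 5 lower. C2, which C1 cleaves, was at 29.2, 29.0 and 25.7 RPKM in control and 9.97, 7.74 and 8.98 with vehicle (log2 fold change -1.55, adjusted p = 0.00262). C3, the central component, was lower by a log2 fold change of -1.76 (adjusted p = 0.0076), and the C1r proteases C1ra (-0.80, adjusted p = 0.0268) and C1rb (-0.65, adjusted p = 0.0335) were lower as well. By mean RPKM the low gene C1rb was 2.13-fold lower. Cd93, an endothelial membrane protein once proposed as a C1q receptor, was lower (-1.08, adjusted p = 0.0045), and C1qbp, a mitochondrial protein that binds C1q, was higher (0.78, adjusted p = 0.0283). Against control, pirfenidone lungs had Cd93 and C3 called lower and none higher (1 at unadjusted p under 0.05). Between pirfenidone and vehicle limma called none of the 12, with 6 higher at unadjusted p under 0.05.

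Fcrls was at 3.67, 4.22 and 4.57 RPKM in control, 6.04, 4.71 and 7.16 with vehicle, and 19.6, 19.7 and 8.39 with pirfenidone. The 3 groups did not overlap in any comparison, and library 3 was again the lowest with pirfenidone. The means were 4.16 ± 0.45, 5.97 ± 1.23 and 15.9 ± 6.5 RPKM. Pirfenidone stood 3.83-fold above control (log2 fold change 1.63, SE 0.29, adjusted p = 0.00804), and this call held in all 17 alternative analyses, with adjusted p from 0.000235 to 0.0353. The difference from vehicle, 2.66-fold (log2 1.20, SE 0.29), had an adjusted p of 0.0867. Fcrls spans 87250736 to 87263765 of chromosome 3 (RefSeq, GRCm38).

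Cx3cr1, the receptor of fractalkine, was at 4.74, 5.79 and 12.2 RPKM in control, 16.4, 13.4 and 21.6 with vehicle, and 31.5, 34.1 and 14.8 with pirfenidone. All 3 vehicle libraries and all 3 pirfenidone libraries lay above all controls. The vehicle mean, 17.1 ± 4.1 RPKM, was 2.27-fold the control mean of 7.56 ± 4.01, with an adjusted p of 0.0574 (log2 fold change 1.16, SE 0.38). With pirfenidone the mean was 26.8 ± 10.5 RPKM, higher than control (log2 1.71, adjusted p = 0.0176) and not called against vehicle (log2 0.56, adjusted p = 0.433). The span of Cx3cr1 on chromosome 9 (120048683 to 120068296) overlaps the predicted gene Gm33858. The strand of counting is not given and exons were not compared, so whether the genes share reads was not tested.

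Ms4a7 was at 2.70, 3.65 and 11.0 RPKM in control, 8.29, 7.10 and 12.4 with vehicle, and 27.4, 36.5 and 10.4 with pirfenidone. Control library 3 exceeded pirfenidone library 3. The gene lies on chromosome 19 (11321039 to 11336146). With pirfenidone the mean of 24.8 ± 13.3 RPKM was 4.29-fold the control mean of 5.78 ± 4.53 (log2 1.96, SE 0.52, adjusted p = 0.0337). Differences of vehicle from control (log2 0.76, adjusted p = 0.319) and of pirfenidone from vehicle (log2 1.20, adjusted p = 0.238) were not called. Of 7 other Ms4a genes tested, Ms4a1, a B cell gene, and Ms4a4c were lower in TGFalpha lungs on vehicle than in control, with log2 fold changes of -1.41 (adjusted p = 0.00831) and -1.18 (adjusted p = 0.00643).

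Csf1r, the receptor for CSF1 and IL-34, was at 43.6, 42.6 and 61.4 RPKM in control, 43.3, 35.6 and 44.9 with vehicle, and 83.8, 77.2 and 41.1 with pirfenidone. Pirfenidone library 3 lay below all 3 controls, while libraries 1 and 2 lay above every other library. The means were 49.2 ± 10.6, 41.3 ± 5.0 and 67.3 ± 23.0 RPKM, and no comparison was called (adjusted p = 0.541 for vehicle against control, 0.216 for pirfenidone against vehicle and 0.317 for pirfenidone against control). The span of Csf1r overlaps Mir6983 and Gm52352. Exons were not compared, so whether any reads are shared with them was not tested.

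Relative to Csf1r, which many kinds of mononuclear phagocyte express, the other members moved unequally. The ratio of C1qa to Csf1r was 0.877, 1.02 and 1.72 in control, 2.85, 2.50 and 2.39 with vehicle, and 3.46, 4.08 and 2.58 with pirfenidone. The ratio of Cx3cr1 to Csf1r was 0.109, 0.136 and 0.198 in control, 0.380, 0.376 and 0.480 with vehicle, and 0.376, 0.442 and 0.360 with pirfenidone. In both ratios every TGFalpha library lay above every control, including pirfenidone library 3. The Fcrls ratio stepped up in each group, with 0.0744 to 0.0990 in control, 0.132 to 0.159 with vehicle and 0.204 to 0.255 with pirfenidone. The Plac8 ratio overlapped between all groups, from 1.13 to 2.00 over the 9 libraries. These ratios are descriptions, and no test was run on them.

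Ccr2, the receptor for CCL2, CCL7 and CCL12, was at 10.1, 9.18 and 15.4 RPKM in control, 13.4, 11.7 and 15.3 with vehicle, and 23.0, 34.1 and 13.4 with pirfenidone. Control and vehicle libraries overlapped, and library 3 with pirfenidone stayed within the vehicle range. The means were 11.6 ± 3.4, 13.4 ± 1.8 and 23.5 ± 10.4 RPKM. The comparison of pirfenidone with control had a log2 fold change of 0.90 (SE 0.31, adjusted p = 0.0729), and the other comparisons were not called (adjusted p = 0.626 and 0.252). Ccr2 lies on chromosome 9 (124101918 to 124109140), and how the authors' counting treated reads that match more than one gene is not given in the sources used here.

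Plac8, on chromosome 5 (100551589 to 100572253), was the sole member called between vehicle and control lungs; of the other 8, Csf1r also had a lower mean with vehicle and 7 had a higher one. It was at 72.0, 85.1 and 84.6 RPKM in control, 52.8, 57.9 and 54.7 with vehicle, and 94.9, 101 and 80.7 with pirfenidone. All 3 vehicle libraries lay below all others, and pirfenidone libraries 1 and 2 were the highest. In TGFalpha lungs on vehicle the mean of 55.1 ± 2.6 RPKM was 1.46-fold lower than the control mean of 80.6 ± 7.4 (log2 fold change -0.54, SE 0.10, adjusted p = 0.00944). This call held in all 17 alternative analyses, with adjusted p from 0.00511 to 0.0433. With pirfenidone the mean of 92.2 ± 10.5 RPKM was 1.67-fold the vehicle mean (log2 0.73, SE 0.10, adjusted p = 0.0338) and was not called against control (log2 0.19, adjusted p = 0.237). The call against vehicle was lost with the replicate number as a block (adjusted p = 0.0786) and with only those groups fitted (0.0829). It was also lost without control library 2 (0.0604), without TGFalpha vehicle library 1, 2 or 3 (0.0929, 0.144 and 0.152) and without pirfenidone library 1 or 2 (0.160 and 0.162).

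**Figure D2:**
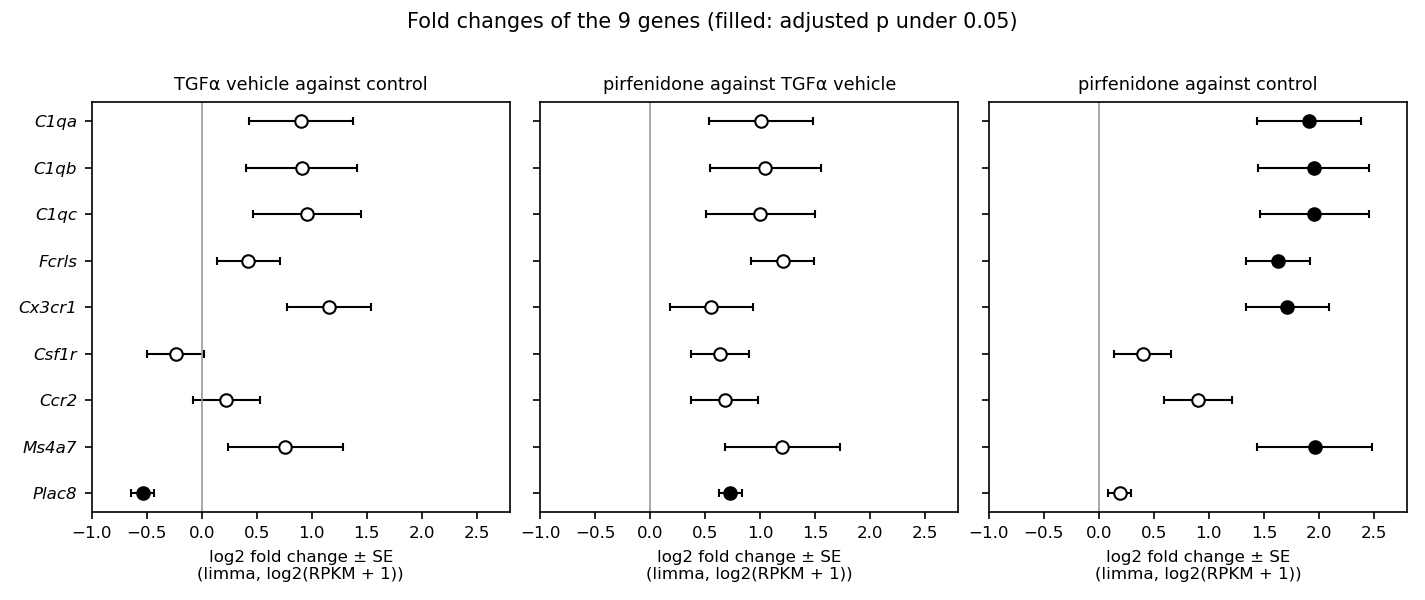
Log2 fold changes with standard errors from limma for the 9 genes in the 3 comparisons, where filled points have an adjusted p under 0.05. Plac8 is filled in the first and second panels, and C1qa, C1qb, C1qc, Fcrls, Cx3cr1 and Ms4a7 are filled in the third.

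Counted over the members, limma called 0 of 9 higher and 1 lower in TGFalpha lungs on vehicle than in control. Of all tested genes, 12.0% were called higher and 11.2% lower in that comparison. At unadjusted p under 0.05 there was 1 member higher, Cx3cr1. Limma voom on recovered reads gave the same counts, 0 called higher and 1 higher at unadjusted p under 0.05. The median log2 fold change was 0.76 over the members and 0.04 over all tested genes. Groups did not overlap for 3 members (Fcrls, Cx3cr1 and Plac8), and 44.2% of all tested genes had groups that did not overlap. Without control library 3, Cx3cr1 (log2 1.51, adjusted p = 0.0185) and C1qc (log2 1.44, adjusted p = 0.0484) were called higher. Without pirfenidone library 3, which enters this comparison through the shared estimate of spread, Cx3cr1 was called too (adjusted p = 0.0265).

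Between pirfenidone and vehicle, limma called 1 of 9 members higher and 0 lower. Over all tested genes 0.152% were called higher and 0.549% lower. At unadjusted p under 0.05 there were 4 members higher and 0 lower, and voom called 1 higher and 0 lower. The median log2 fold change was 1.00 over the members and 0.03 over all tested genes. The groups of 2 members, Fcrls and Plac8, did not overlap, against 24.4% of all tested genes. Without pirfenidone library 3, 8 members were called higher, among them Fcrls (log2 1.58, adjusted p = 0.00243), Csf1r (0.95, adjusted p = 0.0127) and Ccr2 (1.01, adjusted p = 0.0292). In that analysis Cx3cr1 had an adjusted p of 0.108. The number of genes called over the whole table rose there as well, from 21 to 1060 higher and from 76 to 1064 lower. Leaving out any 1 of 6 other libraries instead took the count of members from 1 to 0. Plac8 then had a limma adjusted p from 0.0604 to 0.162.

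Between pirfenidone and control, limma called 6 of 9 members higher and 0 lower, where 10.6% of all tested genes were called higher and 7.74% lower. No member was lower at unadjusted p under 0.05, and voom gave the same counts, 6 higher and 0 lower. The median log2 fold change was 1.71 over the members and 0.05 over all tested genes. Groups did not overlap for 3 members (C1qa, Fcrls and Cx3cr1), against 37.3% of all tested genes. The count fell to 1, Fcrls, when control library 1, control library 2, pirfenidone library 1 or pirfenidone library 2 was left out, and the other 5 genes then had adjusted p between 0.0630 and 0.114. It fell to 2, Fcrls and Cx3cr1, with the replicate number as a block, where the other 4 had adjusted p from 0.0521 to 0.0610. Without TGFalpha vehicle library 3, C1qb had an adjusted p of 0.0502. The count rose to 8 without pirfenidone library 3 (Csf1r and Ccr2 added, adjusted p = 0.0247 and 0.0107) and to 7 without control library 3 (Ccr2 added, adjusted p = 0.0437). The 3 comparisons share libraries in pairs, so their counts are not independent of each other.

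**Figure D3:**
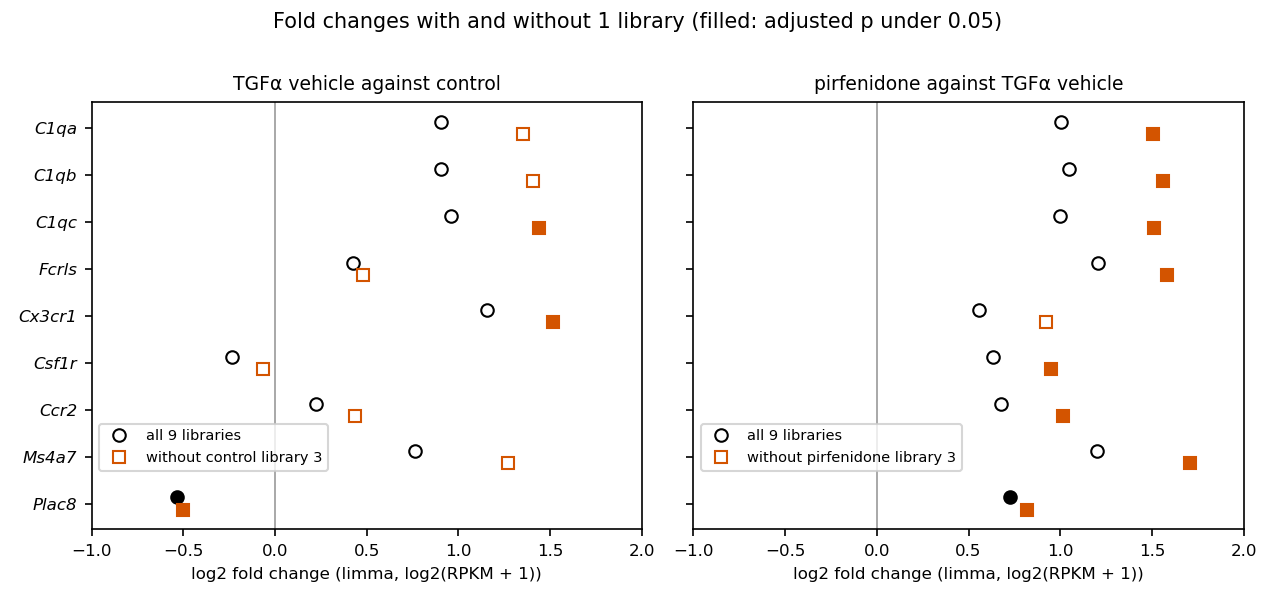
Log2 fold changes of the 9 genes from limma with all 9 libraries (circles) and without control library 3 (left, squares) or pirfenidone library 3 (right, squares), where filled marks have an adjusted p under 0.05. Leaving out pirfenidone library 3 takes the called genes in the right panel from 1 to 8. Leaving out any 1 of 6 other libraries, not drawn, takes them from 1 to 0.

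Spread within groups was wide for most members. In control lungs the SD was 59.9% of the mean for C1qa and 78.4% for Ms4a7, against a median of 10.9% over all tested genes. Fcrls, at 10.9%, and Plac8, at 9.19%, were near that median. With pirfenidone the SD was 34.1% to 53.4% of the mean for 8 members and 11.4% for Plac8, against a median of 11.8%. In TGFalpha lungs on vehicle it ran from 4.67% for Plac8 to 29.8% for Ms4a7, against a median of 10.1%.

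Marker genes of other cells moved with the same libraries. Control library 3 was high in alveolar macrophage genes, whose summed level was 466, 550 and 8802 RPKM in control, 1644, 1155 and 959 with vehicle, and 810, 606 and 738 with pirfenidone. Chil3, a chitinase-like protein of alveolar macrophages, made up most of it, with 8290 RPKM in control library 3. All 15 pan-macrophage genes were highest among the controls in that library, for example Cd68 at 207 RPKM against 40.6 and 44.5. None of the 12 alveolar macrophage genes was called in any comparison by limma (at unadjusted p under 0.05, 1 higher with vehicle than in control, 1 higher and 2 lower between pirfenidone and vehicle, and 1 higher between pirfenidone and control).

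Pirfenidone libraries 1 and 2 were high in adipocyte and fibroblast genes, lists added after their values were seen. The adipocyte sum was 57.4, 59.7 and 76.8 RPKM in control, 226, 53.3 and 43.4 with vehicle, and 638, 536 and 95.4 with pirfenidone. The fibroblast sum was 606, 674 and 617 RPKM in control, 1199, 990.3 and 1224 with vehicle, and 3050, 2839 and 1391 with pirfenidone. Pirfenidone libraries 1 and 2 were the highest libraries for 6 of 7 adipocyte and 6 of 8 fibroblast genes. Skeletal muscle transcripts summed to 7.93, 12.3 and 8.18 RPKM in control, 1044, 397 and 3.62 with vehicle, and 291, 1621 and 8.06 with pirfenidone. Whether the tissue taken from each mouse differed, and what part these markers had in the values of the 9 genes, was not tested.

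**Figure D4:**
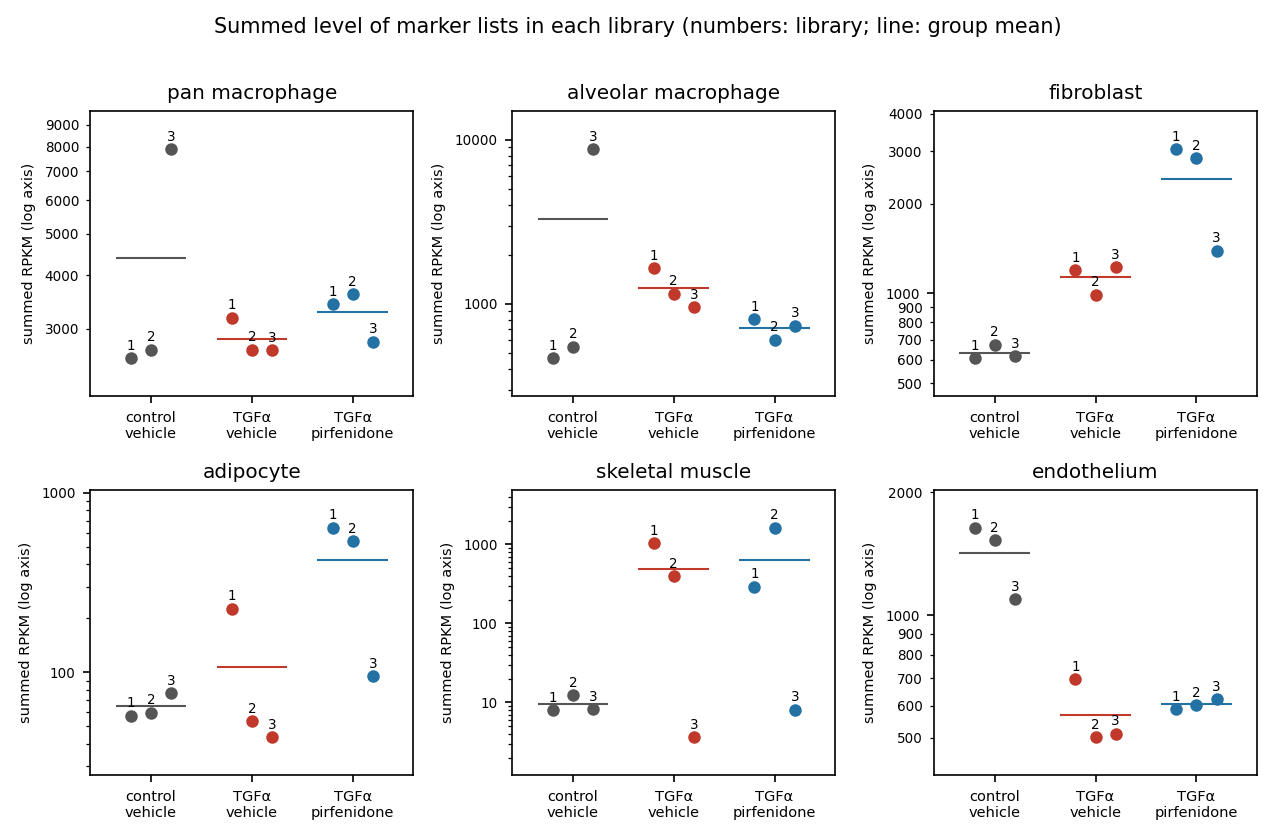
Summed RPKM of 6 marker lists on a log axis, 1 point per library with its number, by group, with a line at the group mean. Control library 3 stands apart in pan-macrophage and alveolar macrophage genes, and pirfenidone libraries 1 and 2 stand above the other libraries in fibroblast and adipocyte genes.

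Of 9 genes around CSF1R, 3 were called lower in TGFalpha lungs on vehicle than in control and 0 higher (1 at unadjusted p under 0.05). The ligand Csf1 was at 15.1, 16.8 and 29.1 RPKM in control and 11.2, 8.53 and 10.3 with vehicle (log2 fold change -0.90, adjusted p = 0.0241). The kinase Lyn, which acts downstream of many myeloid receptors, was also lower (log2 -0.72, adjusted p = 0.00283). The second ligand, Il34, went the other way in its values, with 10.6, 10.9 and 16.1 RPKM in control, 26.6, 18.6 and 24.6 with vehicle, and 54.5, 47.5 and 22.8 with pirfenidone. All TGFalpha libraries lay above all controls for Il34. It was called higher with pirfenidone than in control (log2 1.59, adjusted p = 0.0111) and not with vehicle (log2 0.85, adjusted p = 0.0761).

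Ligands of the chemokine receptors were measured next to them. Ccl12, a CCR2 ligand of the mouse, was at 1.22, 1.45 and 13.3 RPKM in control, 20.0, 11.4 and 15.5 with vehicle, and 52.2, 61.4 and 14.5 with pirfenidone. It was called higher with pirfenidone than in control (log2 3.12, adjusted p = 0.0237), with control library 3 close to the vehicle libraries. Cx3cl1, the ligand of CX3CR1, was at 12.6, 12.8 and 12.4 RPKM in control, 13.5, 14.6 and 14.7 with vehicle, and 21.4, 21.2 and 14.8 with pirfenidone, and was called higher in the same comparison (log2 0.55, adjusted p = 0.0234). Ccl2 and Ccl7, the other CCR2 ligands listed, were not called in any comparison. Ccl2 was at 1.25, 2.57 and 22.6 RPKM in control, 5.59, 3.19 and 4.73 with vehicle, and 8.25, 13.1 and 4.13 with pirfenidone, highest in control library 3. Ccl8, a related chemokine, was at 5.35, 13.7 and 72.6 RPKM in control, 15.1, 8.75 and 6.43 with vehicle, and 117, 201 and 10.5 with pirfenidone. It was not called by limma (adjusted p = 0.236 against vehicle). Of the 7 genes of this list, limma called 2 higher with pirfenidone than in control and none in the other comparisons (1 higher with vehicle than in control and 2 higher with pirfenidone than with vehicle at unadjusted p under 0.05).

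**Figure D5:**
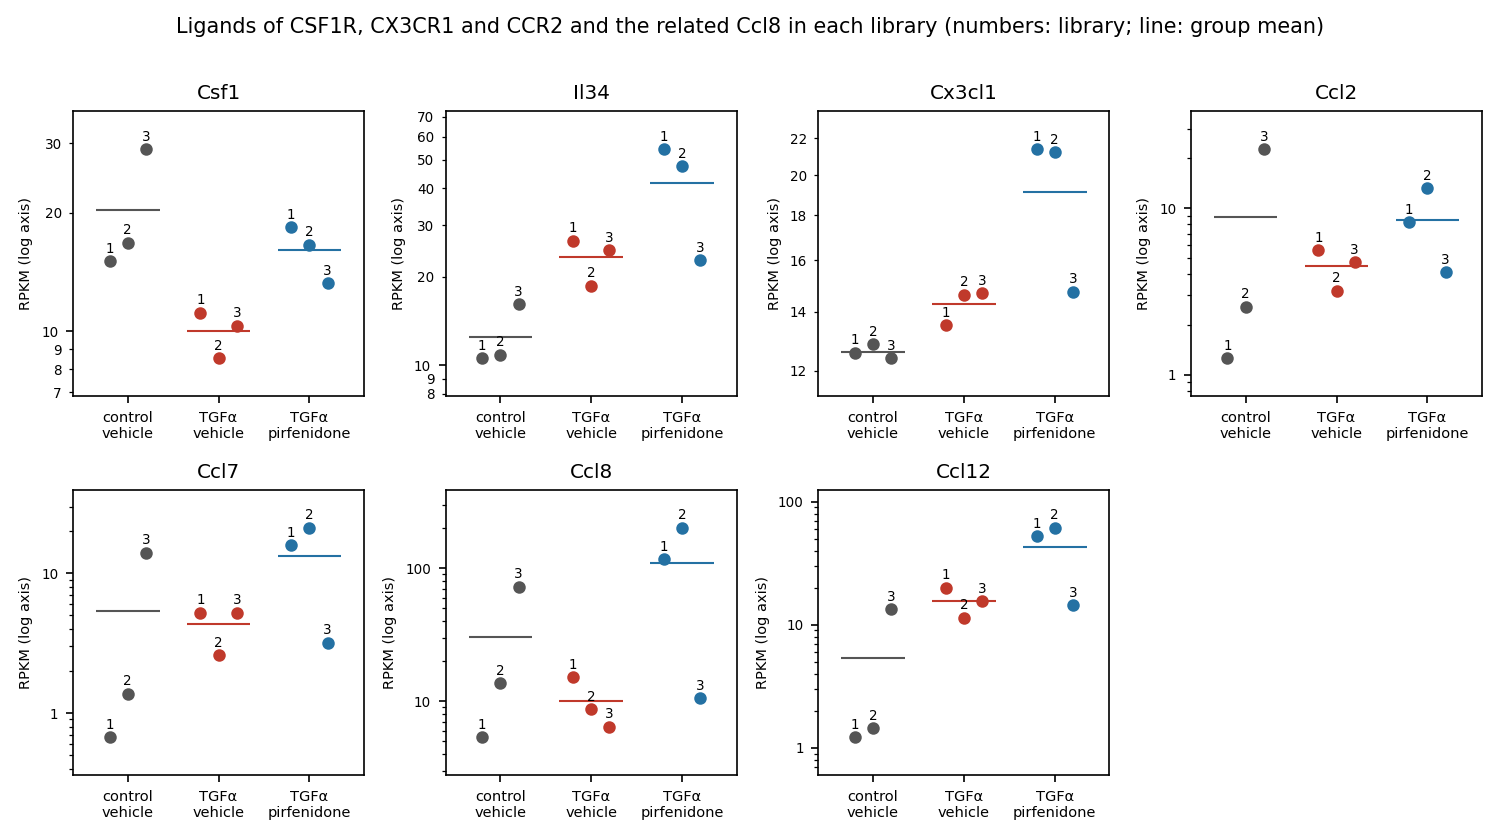
RPKM of Csf1, Il34, Cx3cl1, Ccl2, Ccl7, Ccl8 and Ccl12 on log axes, 1 point per library with its number, by group, with a line at the group mean. Pirfenidone libraries 1 and 2 are the highest points for Il34, Cx3cl1, Ccl7, Ccl8 and Ccl12, and control library 3 is the highest for Csf1 and Ccl2.

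Other markers of the same cells were counted from lists. Of 10 nonclassical monocyte genes, 6 were called lower in TGFalpha lungs on vehicle than in control (Treml4, Cd300e, Spn, Itgal, Emr4 and Gngt2) and 0 higher (0 at unadjusted p under 0.05). Emr4, an adhesion receptor of the EGF-TM7 family, was at 5.16, 4.24 and 4.77 RPKM in control and 0.723, 0.982 and 0.713 with vehicle. Its mean was 5.86-fold lower with vehicle (log2 -1.66 with the pseudocount, limma adjusted p = 0.00175). Spn, the sialoglycoprotein CD43, was lower by a log2 fold change of -0.97 (adjusted p = 0.00206). Both were also lower with pirfenidone than in control (log2 -1.05 and -0.51, adjusted p = 0.00957 and 0.0215), as were 5 of the 10 in all. Cx3cr1, which marks the same monocytes, lay above control in all TGFalpha libraries. In TGFalpha lungs on vehicle, 9 of 9 T cell and 7 of 7 natural killer cell genes were also called lower than in control. Which cells gave the lower values of the nonclassical monocyte list was not tested.

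Of 8 classical monocyte genes, 1 was called higher and 2 lower in TGFalpha lungs on vehicle than in control. Mgst1, a glutathione transferase also made by other lung cells, was the higher one (log2 0.37, adjusted p = 0.012). Ly6c2, the surface antigen that defines classical monocytes in mice, was not called, at 14.2, 16.9 and 24.3 RPKM in control and 19.7, 24.2 and 25.2 with vehicle.

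Of 15 further interstitial macrophage genes, 1 was called higher and 3 lower in TGFalpha lungs on vehicle than in control. Apoe, a lipid carrier, was the higher one, at 239, 252 and 336 RPKM in control and 710, 498 and 590.2 with vehicle (log2 1.12, adjusted p = 0.0473), and it was higher with pirfenidone than in control (log2 1.83, adjusted p = 0.00988). Lyve1, a hyaluronan receptor of perivascular macrophages and lymphatic endothelium, was lower, at 114, 119 and 88.9 RPKM in control and 28.1, 26.7 and 20.5 with vehicle (log2 -2.06, adjusted p = 0.000657). Stab1, a scavenger receptor, and Pf4, a chemokine of platelets and macrophages, were lower too (log2 -0.89 and -1.59, adjusted p = 0.0364 and 0.0417). With pirfenidone against control, Apoe and Fcgr1, the high-affinity IgG receptor (log2 1.56, adjusted p = 0.0164), were called higher and Lyve1 lower. Limma called none of the 15 between pirfenidone and vehicle, with 5 higher at unadjusted p under 0.05.

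Of 13 myeloid transcription factors, 2 were called higher and 3 lower in TGFalpha lungs on vehicle than in control. Runx1 (log2 0.68, adjusted p = 0.00263) and Cebpa (0.59, adjusted p = 0.0126) were higher. Klf4 (-1.70, adjusted p = 0.00275), Klf2 (-1.77, adjusted p = 0.00626) and Cebpb (-0.64, adjusted p = 0.0136) were lower, and the Klf genes are also expressed in endothelium. Maf, a factor of tissue macrophages, was at 9.26, 11.6 and 13.8 RPKM in control, 22.9, 12.1 and 17.9 with vehicle, and 36.5, 34.8 and 19.4 with pirfenidone, and was called higher with pirfenidone than in control (log2 1.28, adjusted p = 0.0177). Spi1, which encodes PU.1, was highest in control library 3, at 64.5 RPKM against 25.6 and 26.8 in the other controls, and was not called.

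Over all tested genes other than the members themselves, patterns most like those of the members were found by the root mean square difference, over 9 libraries, of log2(RPKM + 1) minus each gene's control mean. C3ar1, the receptor for the complement fragment C3a, was among the 2 nearest to C1qa (0.251), and also among the 2 nearest to C1qb, C1qc and Ms4a7. C3ar1 was at 1.76, 1.92 and 4.14 RPKM in control, 8.01, 5.34 and 8.13 with vehicle, and 17.2, 17.5 and 4.48 with pirfenidone. Nearest to Fcrls was Fap, a fibroblast protease (0.161). Fap was at 0.440, 0.502 and 0.721 RPKM in control, 1.67, 0.997 and 1.57 with vehicle, and 5.37, 6.41 and 1.94 with pirfenidone. At levels this low the pseudocount understates fold changes, so this likeness does not mean equal folds. Nearest to Cx3cr1 were Lgals1, which encodes galectin-1 (0.185), and C3ar1 (0.222). For Csf1r they were Cmtm7 (0.105) and Zeb2os (0.117), for Ccr2 Gadd45a (0.136) and P2ry12 (0.147), and for Plac8 F630028O10Rik (0.106) and S100a10 (0.129). Likeness of pattern over 9 libraries says nothing of function or control.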

How the data were processed

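Total lung RNA of 9 mice was sequenced, per the labels' protocols after column extraction and standard Illumina library preparation. Per the submitters' processing notes, CASAVA 1.8, bcl2fastq, TopHat and DESeq were used with the build mm10, and no role is given for any. Counting method, use of strand and annotation: not given in the sources used here. Values made by the authors are RPKM, a unit settled from the deposited numbers: 100% fell within 0.01 reads of a whole number of reads, and 99.9% of gene lengths came out within 0.05 bases of whole. Library totals were 11428709 to 18874158 reads, so a floor of 3 reads equalled 0.159 to 0.263 RPM, for counting error only. Symbols of 29 genes were repaired from RefSeq by gene identifier.

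Genes above 1 RPKM in at least 3 libraries (13849) were tested on log2(RPKM + 1) with limma-trend (limma 3.58.1, R 4.3.3) in 1 two-sided fit of all 9 libraries with group as the only term, and p was adjusted by Benjamini-Hochberg over all tested genes. The fit was also run on simulated reads, with 1 setting of spread for every gene and no library that stood apart. That run does not show how the fit handles genes spread as widely as most members. The pseudocount understates fold changes of low genes, so folds are ratios of mean RPKM. Motif searches, tables and figures used Python 3.11.15, numpy 2.4.6, pandas 2.3.3 and matplotlib 3.10.9. Alternatives were pseudocounts of 0.1 and 0.5, no filter, median-of-ratios scaling, voom on recovered reads, only the groups compared, a replicate block, each library left out, and TGFalpha vehicle library 1 and pirfenidone library 3 left out together. Nothing says which mice shared a litter or day, so neither entered the fit. Each p-value of the main fit sets a group difference against a spread between mice. That spread is pooled over the 3 groups and moderated by limma over all tested genes.

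The members and lists were chosen with earlier results of these data known, and the adipocyte and fibroblast lists after their values were seen. Named were all members, of each list the 2 genes with the smallest p in TGFalpha vehicle against control, genes whose role bears on a member, and the 2 genes nearest in pattern. Some genes that the rule names are not reported here. Further genes, named as called members of a list or beside a library that stands apart, were chosen after their values were seen.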

Additional observations from a re-analysis of the deposited data

How the results depend on the processing

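Of 459 recomputed fold changes of members, 399 kept their side of the threshold, 23 newly passed it, 37 no longer passed it and none changed sign. Fitting only the groups compared gave 1 member higher in TGFalpha vehicle against control, 0 in pirfenidone against vehicle (all genes: 0 higher, 11 lower) and 2 in pirfenidone against control. With the replicate block the counts were 0 members higher in pirfenidone against vehicle (all genes: 1 higher, 20 lower) and 2 in pirfenidone against control. Over all genes, pirfenidone against vehicle gave 13 higher with a pseudocount of 0.1 and 12 without a filter. Without TGFalpha vehicle library 1 and pirfenidone library 3, pirfenidone against vehicle gave 7 members higher (all genes: 1381 higher, 1651 lower), and TGFalpha vehicle against control gave 1 (all genes: 2829 higher). The cause was not tested. Leaving out 1 library at a time gave 0 to 2 members higher in TGFalpha vehicle against control (all genes 638 to 2210 higher, 679 to 1793 lower). In pirfenidone against vehicle it gave 0 to 8 (all genes 0 to 1060 higher, 10 to 1064 lower), and in pirfenidone against control 1 to 8 (all genes 673 to 1725 higher, 410 to 1344 lower). The labels do not say that the replicate numbers pair the mice. Between vehicle and pirfenidone libraries of the same number, deviations from the group means correlated at 0.407, -0.136 and 0.458 across genes. Not every library correlated best with its own number. Deviations of 3 libraries from their own mean are tied to each other, so these values cannot decide whether the mice were paired. In each group of 3 mice 1 library stood apart from its fellows: control library 3 in macrophage genes, and TGFalpha vehicle library 1 and pirfenidone library 3 on the second principal component (3.73 against -26.9 and -27.1, and -16.4 against 28.3 and 33.6).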

Other observations

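Lists of other immune and vascular cells were counted in the same fit. In TGFalpha lungs on vehicle against control, limma called lower 9 of 9 T cell genes, 7 of 7 natural killer cell genes, 6 of 8 B cell genes, 5 of 7 neutrophil genes, 4 of 11 dendritic cell genes and 8 of 8 endothelial genes, and called none of them higher (0 at unadjusted p under 0.05). With pirfenidone against control, 8 of 8 endothelial genes and 5 of 7 neutrophil genes were called lower, as were 3 of 7 natural killer cell, 3 of 8 B cell, 3 of 11 dendritic cell and 1 of 9 T cell genes. Tcf7 and Cd3e were the T cell genes with the smallest p, and Nkg7 and Klrd1 those of natural killer cells. None of these genes was called between pirfenidone and vehicle by limma. At unadjusted p under 0.05, 6 T cell, 5 B cell, 3 dendritic cell, 1 natural killer cell, 1 neutrophil and 0 endothelial genes were higher there.

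Of 12 genes of scar-associated macrophages, Spp1, which encodes osteopontin, and Apoe were called higher in TGFalpha lungs on vehicle and in pirfenidone lungs than in control. Spp1 was at 128, 140 and 120 RPKM in control and 358, 898 and 1005 with vehicle (log2 2.40, adjusted p = 0.003). The other 10 were not called, and 11 of the 12 were highest among the controls in library 3, for example the elastase Mmp12 at 178 RPKM against 2.27 and 2.38. Of 7 Fc receptor genes tested, Fcrla and Fcrl1, both B cell genes, were called lower with vehicle than in control (log2 -1.02 and -1.10, adjusted p = 0.0108 and 0.0216), whereas Fcrls was not called.

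Among 15 pan-macrophage genes, Ptprc (CD45) and Lst1 were called lower in TGFalpha lungs on vehicle than in control (log2 -0.74 and -0.62, adjusted p = 0.00796 and 0.0331). Which cells gave these lower values was not tested. Lst1, a small myeloid membrane protein, was at 19.3, 18.9 and 22.0 RPKM in control, 13.9, 12.2 and 12.0 with vehicle, and 30.5, 37.6 and 21.8 with pirfenidone, and was called higher with pirfenidone than with vehicle (log2 1.15, adjusted p = 0.0371). Its order of groups was that of Plac8.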
